A study of Gelatoporia subvermispora and Trametes versicolor with 24 samples.

Results

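Water-treated cultures of 2 white-rot fungi, Trametes versicolor and Gelatoporia subvermispora, were compared by RNA sequencing. Members were the flasks that the labels record as given water, 3 of each fungus, each the sum of its 2 libraries, so that 12 of 24 libraries and 6 of 12 flasks entered. The T. versicolor flasks held strain FP-101664, treated on day 5 and harvested on day 6. The G. subvermispora flasks held strain FP-105752, treated on day 12 and harvested on day 13. Both were monokaryons, grown at 28 °C in 25 mL of M7 medium with 5 g/L cellobiose. Ascorbic acid (5 mM) and α-tocopherol (1 mM) went into all 6 flasks, and the first of 2 pulses of water, 12 h apart, followed after 30 min. Mycelium was taken 12 h after the second pulse. In the other 6 flasks the pulses were vanillate, to 2 mM. Species, strain, age of the culture, genome and gene annotation change together between the groups and cannot be told apart.

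White-rot fungi break down lignin, the aromatic polymer of wood, with secreted oxidative enzymes. Class II peroxidases are heme enzymes that use hydrogen peroxide: manganese peroxidases (MnP) oxidise manganese ions, which in turn attack phenolic units, lignin peroxidases (LiP) oxidise non-phenolic aromatic units, and versatile peroxidases (VP) do both. Laccases, copper enzymes, oxidise phenols with oxygen and need no peroxide. In wood, G. subvermispora is known for removing lignin ahead of cellulose, and T. versicolor for removing both together.

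Gene counts per water flask were 6030598, 13835447 and 3950984 in T. versicolor and 8498106, 8554557 and 9765746 in G. subvermispora. Genes took 75.4% ± 0.86 (SD, n = 3) and 78.5% ± 1.82 of all reads, and unaligned reads 15.4% ± 0.91 and 8.77% ± 1.14. Spearman correlations between flasks of 1 fungus were 0.993 to 0.995 and 0.995 to 0.997 across genes, which are not independent replicates. The tables list 14570 and 12313 genes under identifiers that the fungi do not share, so groups were formed by symbol, which 42 and 110 genes carry. A level below is CPM, the gene's count scaled to a total of 1000000 gene counts in the flask. It is not scaled to gene length, for which no source was used, so that an order of genes by level is an order of read counts. In these bulk samples, fewer cells of a kind and less RNA per cell cannot be told apart.

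T. versicolor drew more of its gene counts from its 100 to 1000 most abundant genes than G. subvermispora. The share of the 10 most abundant genes did not separate the fungi. In T. versicolor, 743, 773 and 768 genes held 50% of the gene counts (761 ± 16.1, SD, n = 3). In G. subvermispora 1012, 1015 and 976 genes did (1001 ± 21.7), 1.31 times as many, and every flask lay above every T. versicolor flask. The difference of 240 genes had an SE of 15.6, and a two-sided exact permutation test gave p = 0.1, the smallest that 3 flasks against 3 can give. Over all 12 flasks, with the fungus permuted within treatment, the exact p was 0.005, again the smallest possible, and 0.0075 after Benjamini-Hochberg adjustment over the 6 values tested in this way. Every 12-flask test takes in the vanillate flasks and is not a test of the water flasks alone.

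**Figure D1:**
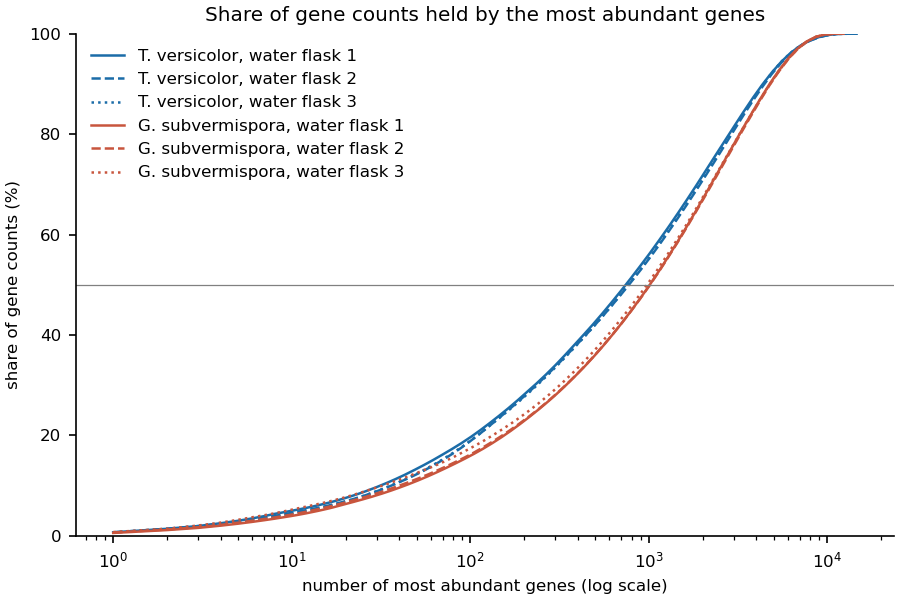
Cumulative percent of gene counts (vertical axis) against the number of genes, ordered from the most abundant down (horizontal axis, log scale), with 1 line per water flask. Between the 100 and the 1000 most abundant genes the T. versicolor lines run above the G. subvermispora lines, and they cross 50% at 761 and 1001 genes on average.

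The effective number of genes, which is the number of equally abundant genes with the same Shannon diversity, was 3552, 3672 and 3648 in T. versicolor. It was 4240, 4235 and 4065 in G. subvermispora, without overlap (3624 ± 63.5 against 4180 ± 99.7). The exact permutation p was 0.1 in water and 0.005 over 12 flasks (adjusted 0.0075). The 100 most abundant genes took 19.6%, 18.9% and 18.9% of counts in T. versicolor and 15.9%, 16.2% and 17.5% in G. subvermispora, with the same p-values. The 10 most abundant genes gave no such separation: they took 5.01%, 4.60% and 4.46% in T. versicolor and 3.98%, 4.25% and 5.23% in G. subvermispora. Without flask 1 of G. subvermispora the difference in water changed sign, from -0.20 to 0.05 percentage points. Flask 3 of G. subvermispora was above all T. versicolor flasks in that share and the other 2 were below them (exact permutation p = 0.7, and 0.135 over 12 flasks). Without flask 3 the value over the remaining 11 flasks passed the test (exact permutation p = 0.01), and it was the only flask whose removal did so. With any other flask left out instead, the exact permutation p was 0.08 to 0.345.

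**Figure D2:**
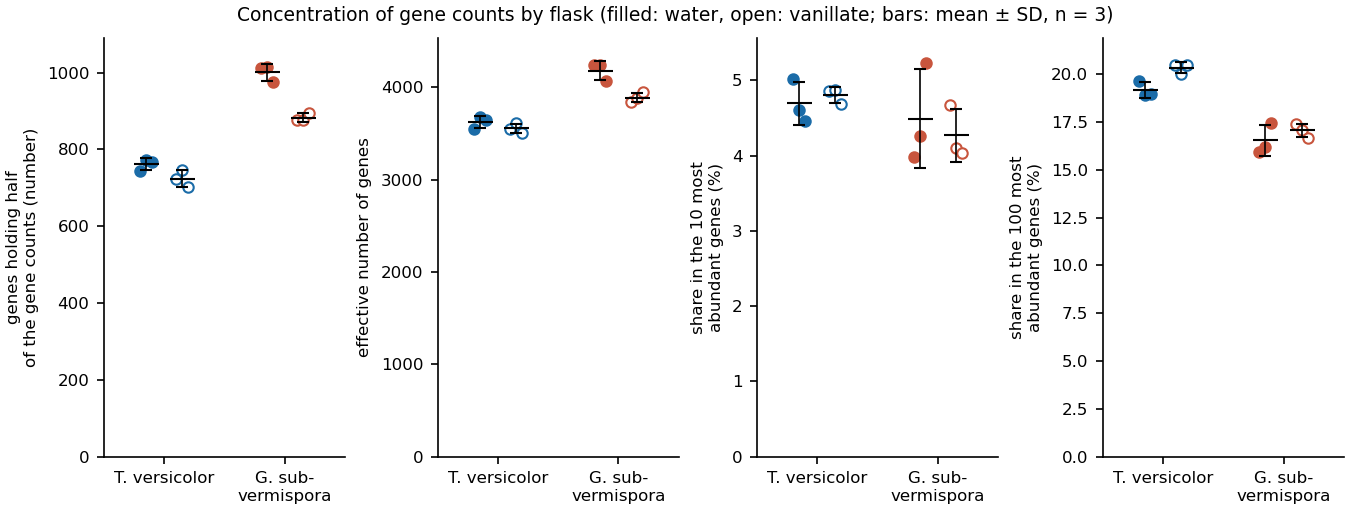
Points are flasks, filled for water and open for vanillate, and bars the mean ± SD of 3 flasks, for the number of genes holding 50% of gene counts, the effective number of genes, and the percent of counts in the 10 and the 100 most abundant genes. The water flasks of the fungi separate in each measure except the share of the 10 most abundant genes, where those of G. subvermispora span 3.98% to 5.23%.

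The fungi also differed in how many genes stood at each level. Genes at 1000 CPM or more numbered 123 ± 7.55 in T. versicolor and 71.7 ± 2.52 in G. subvermispora, and took 21.6% ± 0.47 against 14.0% ± 0.52 of counts. Between 100 and 1000 CPM the order turned, with 2336 ± 24.5 against 2626 ± 33.2 genes and 54.7% ± 0.64 against 61.2% ± 0.76 of counts. Genes at 1 to 10 CPM numbered 3502 ± 94.2 and 2228 ± 27.1, and took 1.52% and 1.02% of counts. Genes under 1 CPM, those without counts included, numbered 3331 ± 102 and 1981 ± 9.07, and took 0.051% and 0.027%. With genes of low counts removed by the edgeR filter, the difference in genes holding 50% of counts was 0.40 on the log2 scale, against 0.39 with all genes. Genes at 0 made up 15.1% ± 1.39 of the T. versicolor table and 10.8% ± 0.19 of that of G. subvermispora. With all flasks thinned to the shallowest, these were 16.4% ± 0.16 and 12.2% ± 0.042. Per gene detected the distance between the fungi was wider, since 6.16% ± 0.13 of detected genes held 50% of counts in T. versicolor and 9.12% ± 0.21 in G. subvermispora. The median level of genes with at least 10 counts was 31.3, 26.9 and 36.4 CPM in T. versicolor, lowest in the deepest flask and highest in the shallowest. It was 43.4, 43.8 and 42.7 CPM in G. subvermispora, a ratio of the means of 0.46 on the log2 scale.

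Most of the highest genes of both fungi carry no symbol. The most abundant gene of T. versicolor was TRAVEDRAFT_59617 at 7270, 7137 and 6850 CPM, followed by TRAVEDRAFT_30062 at 6964, 7184 and 6794 CPM. Of the 100 highest by mean level, 0 carry a symbol in this fungus and 3 in G. subvermispora. The files give no product for these identifiers. The G. subvermispora list opened with CERSUDRAFT_79669 at 5942, 6814 and 7694 CPM and held CsMn38 in place 3, at 4419, 4639 and 6498 CPM, and CsMn26 in place 6, at 4389, 3926 and 3968 CPM. The function behind these 2 symbols is not given in the sources used here. Flask 3 held the highest level of 9 of the 10 leading genes of G. subvermispora. CERSUDRAFT_97438 varied most among them, at 2327, 3333 and 5102 CPM. In T. versicolor the largest range among the leading 10 was that of TRAVEDRAFT_136901, at 4706, 2990 and 2852 CPM. Of the 10 genes leading by mean, 8 were among the 10 highest in all 3 flasks of T. versicolor and 7 in G. subvermispora. Of the 10, 4 and 2 respectively were also among the 10 highest by mean in the vanillate flasks of the same fungus.

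The enzyme groups named by symbol in both fungi stood at other heights and were made up differently. Their members were all genes whose symbol starts with MnP, LiP, VP or GP and a digit (GP with a digit matched no gene), the laccases (TvLac and Cslcs), the heme-thiolate peroxidases (HTP), the cytochrome c peroxidases and the Fet3 genes. They came to 38 genes in T. versicolor and 33 in G. subvermispora, of which 28 and 31 passed the edgeR filter on low counts. Over all genes, 10392 of 14570 and 10097 of 12313 passed it. All members enter the sums below. Numbers of genes in a group are numbers of symbols, and any gene of these families without a symbol is missing from the sums and ratios. Sums over members were not tested, because the fungi hold unequal sets of genes and the members were chosen with results known. The cytochrome c peroxidase and Fet3 genes were tested as single genes. They too were chosen with results known, which their p-values do not allow for. The edgeR biological coefficient of variation between water flasks was 10.5% in T. versicolor and 8.46% in G. subvermispora.

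The class II peroxidase transcripts were more abundant in G. subvermispora although it has fewer labelled genes. In T. versicolor 26 genes summed to 288, 290.3 and 222 CPM (267 ± 38.9, SD, n = 3). In G. subvermispora 15 genes summed to 1593, 1449.5 and 1604 CPM (1549 ± 86.2). The flasks did not overlap, and the ratio of means was 5.81 (log2 2.54, SE 0.14), with 4.99 between the closest and 7.23 between the farthest flasks. The median member stood at 3.17 CPM in T. versicolor and 24.2 CPM in G. subvermispora. Members under 5 CPM were 18 of 26 and 4 of 15, which leaves 8 of 26 and 11 of 15 at 5 CPM or more. Over all genes, 8993 of 14570 and 9004 of 12313 were at 5 CPM or more.

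**Figure D3:**
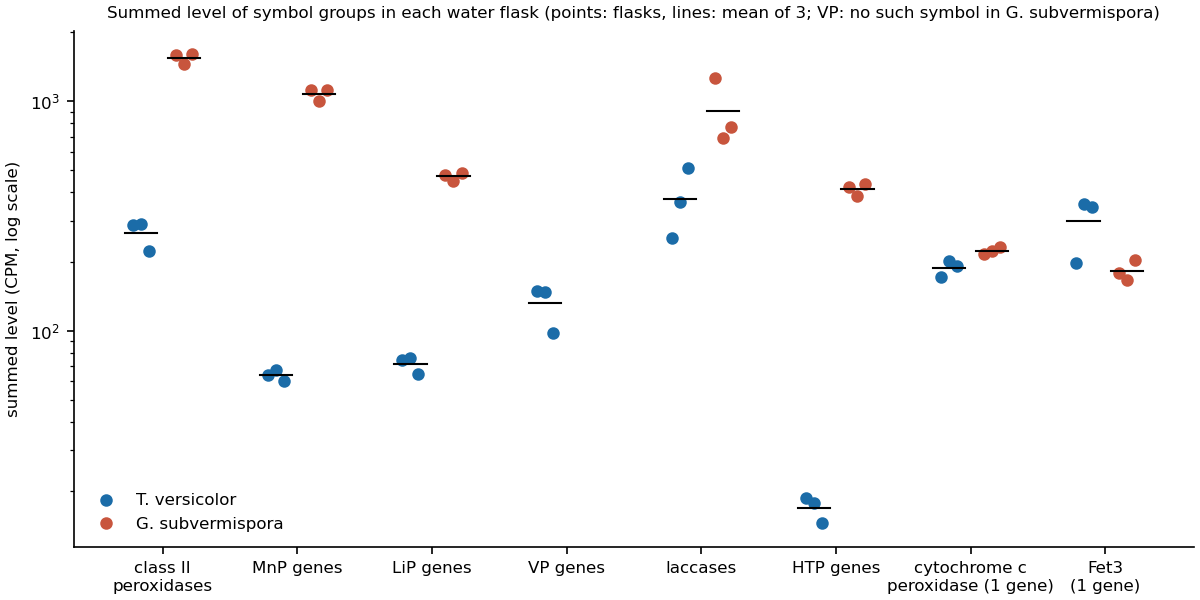
Summed level of each symbol group in CPM (log axis) per water flask, with points for flasks and lines for the mean of 3. The HTP and MnP sums lie farthest apart, by 24.6-fold and 16.9-fold, while the Fet3 flasks overlap and the cytochrome c peroxidase flasks lie within 1.34-fold of each other.

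MnP genes, of which 13 are labelled in each fungus, accounted for most of that gap. The T. versicolor MnP genes summed to 64.0, 67.3 and 60.0 CPM and those of G. subvermispora to 1115, 1002 and 1118 CPM, a 16.9-fold difference (log2 4.08, SE 0.07). The G. subvermispora sum was mainly MnP2, at 808, 705 and 836 CPM, which was 72.5% ± 2.21 of its MnP counts. Next came MnP1 at 102, 105 and 98.0 CPM and MnP6 at 39.2, 33.5 and 32.4 CPM. MnP11 and MnP13 were at the low end of the 13, at 1.99 ± 0.51 and 1.86 ± 0.79 CPM. In T. versicolor the first member was MnP11s at 27.7, 29.8 and 25.3 CPM, 43.2% ± 1.03 of the MnP counts, ahead of MnP10s at 11.8, 13.6 and 9.87 CPM. The remaining 11 were under 10 CPM. MnP13 of T. versicolor had 1, 0 and 1 counts, and the 0 in the deepest flask allows up to 0.217 CPM by counting error alone. Shared numbers in symbols do not mark the same gene in the 2 fungi.

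LiP genes numbered 10 in T. versicolor and 2 in G. subvermispora, and again the shorter list held the higher sum. The T. versicolor LiP genes summed to 74.6, 75.8 and 64.5 CPM, spread over many members. LiP1 led in flask 1 at 23.5 CPM and LiP6 in flasks 2 and 3 at 21.2 and 22.5 CPM. The ranges of these genes overlapped, so no leader is set. In G. subvermispora LiP2 alone gave 477, 448 and 486 CPM, while LiP1 had 5, 2 and 1 counts. The LiP sums differed 6.57-fold (log2 2.72, SE 0.08). LiP2 was the second class II gene of its fungus in all 3 flasks, below MnP2 without overlap, and the ratio of MnP2 to LiP2 counts kept to 1.69, 1.57 and 1.72.

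VP genes carry a symbol in T. versicolor alone, where the 3 of them summed to 149, 147 and 97.2 CPM. VP2 made up nearly all of this, at 144, 143 and 92.9 CPM, and was the first class II gene in every flask, at 47.0% ± 4.42 of the class II counts. Flask 3 was low for VP2 and the other 2 were alike. VP3at and VP1 stayed at 3.09 CPM or less on average. GP, a G. subvermispora symbol with no digit that the rule leaves out, stood at 44.7, 47.1 and 48.3 CPM. The files give no product for GP, but the rule counts symbols of GP with a digit among class II. With this gene counted as a class II member, an unplanned setting, the difference between the class II sums was 2.58 on the log2 scale, against 2.54 without it.

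**Figure D4:**
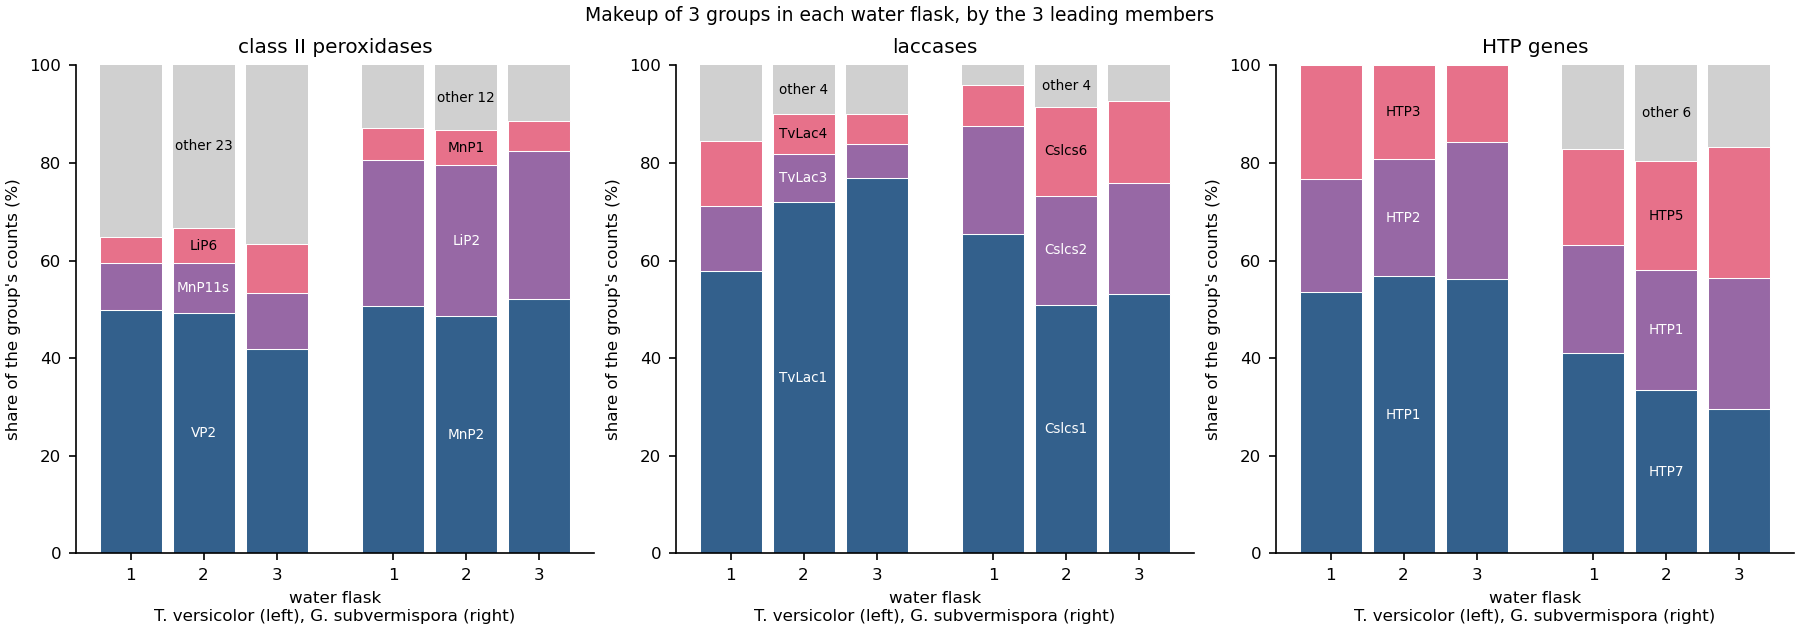
Percent of the group's counts in each water flask, as stacked bars from 0 to 100, for the 3 leading members by mean and the others together, in class II peroxidases, laccases and HTP genes. VP2 takes 41.9% to 49.9% of class II counts in T. versicolor, and MnP2 and LiP2 together fill most of the G. subvermispora bars.

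The mix of classes was steady between flasks of 1 fungus. In T. versicolor MnP, LiP and VP genes gave 24.2% ± 2.55, 27.1% ± 1.79 and 48.8% ± 4.33 of the class II counts. In G. subvermispora MnP genes gave 69.6% ± 0.47 and LiP genes 30.4% ± 0.47. A single gene held close to 50% in both fungi, VP2 in T. versicolor and MnP2 at 50.5% ± 1.75 in G. subvermispora. Beyond the first gene the fungi departed from each other: MnP11s, the next in T. versicolor, had 10.4% ± 0.91, and LiP2, the next in G. subvermispora, 30.4% ± 0.47. The effective number of class II members was 8.32 ± 0.96 in T. versicolor and 4.12 ± 0.19 in G. subvermispora. With MnP2 and LiP2 left out, the other 13 class II genes of G. subvermispora summed to 296 ± 13.3 CPM. All 26 of T. versicolor gave 267 ± 38.9 CPM, and 113 ± 7.92 without VP2 and MnP11s. With only the first gene of each fungus left out, VP2 and MnP2, the difference between the sums was 2.45 on the log2 scale, against 2.54 with all members.

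Laccase genes, 7 in each fungus, were again higher in G. subvermispora, but with a wide spread between flasks. The T. versicolor sum was 253, 362 and 514 CPM (376 ± 131) and the G. subvermispora sum 1261, 692 and 769 CPM (907 ± 309). No flask overlapped, at a 2.41-fold ratio (log2 1.27, SE 0.40), and the closest flasks differed 1.35-fold. One gene led each group in every flask. TvLac1 stood at 146, 261 and 396 CPM and took 68.9% ± 9.99 of the laccase counts, with TvLac3 and TvLac4 next at 35.0 ± 0.89 and 31.5 ± 2.36 CPM. Cslcs1 stood at 826, 353 and 409 CPM and took 56.5% ± 7.84, followed by Cslcs2 at 278, 154 and 174 CPM and Cslcs6 at 106, 126 and 129 CPM. The effective number of laccases was 2.96 ± 0.65 and 3.30 ± 0.51. Without TvLac1 and Cslcs1 the sums were 109 ± 8.70 and 378 ± 50.4 CPM.

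The leading laccase was among the least steady genes of its fungus. Its coefficient of variation between flasks was 46.7% for TvLac1 and 48.9% for Cslcs1, each higher than that of 99.9% of the genes at 5 CPM or more. The median was 9.90% over 8993 such genes of T. versicolor and 7.17% over 9004 of G. subvermispora, and the 90th percentiles were 21.0% and 16.9%. Cslcs2, at 32.8%, was above 99.2% of genes. The other laccases ranged widely. In T. versicolor the coefficient was 2.56% for TvLac3 and 7.50% for TvLac4, and from 16.4% to 33.8% for TvLac2, TvLac5, TvLac6 and TvLac7, of which TvLac5 and TvLac7 were under 5 CPM. In G. subvermispora it was 5.36% to 10.2% for Cslcs3, Cslcs4, Cslcs6 and Cslcs7, and 16.9% for Cslcs5. The flasks ranked differently for laccases and class II peroxidases. The ratio of laccase to class II counts was 0.88, 1.25 and 2.32 in T. versicolor and 0.79, 0.48 and 0.48 in G. subvermispora, so that flask 1 of T. versicolor lay close to flask 1 of G. subvermispora and the others far apart.

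**Figure D5:**
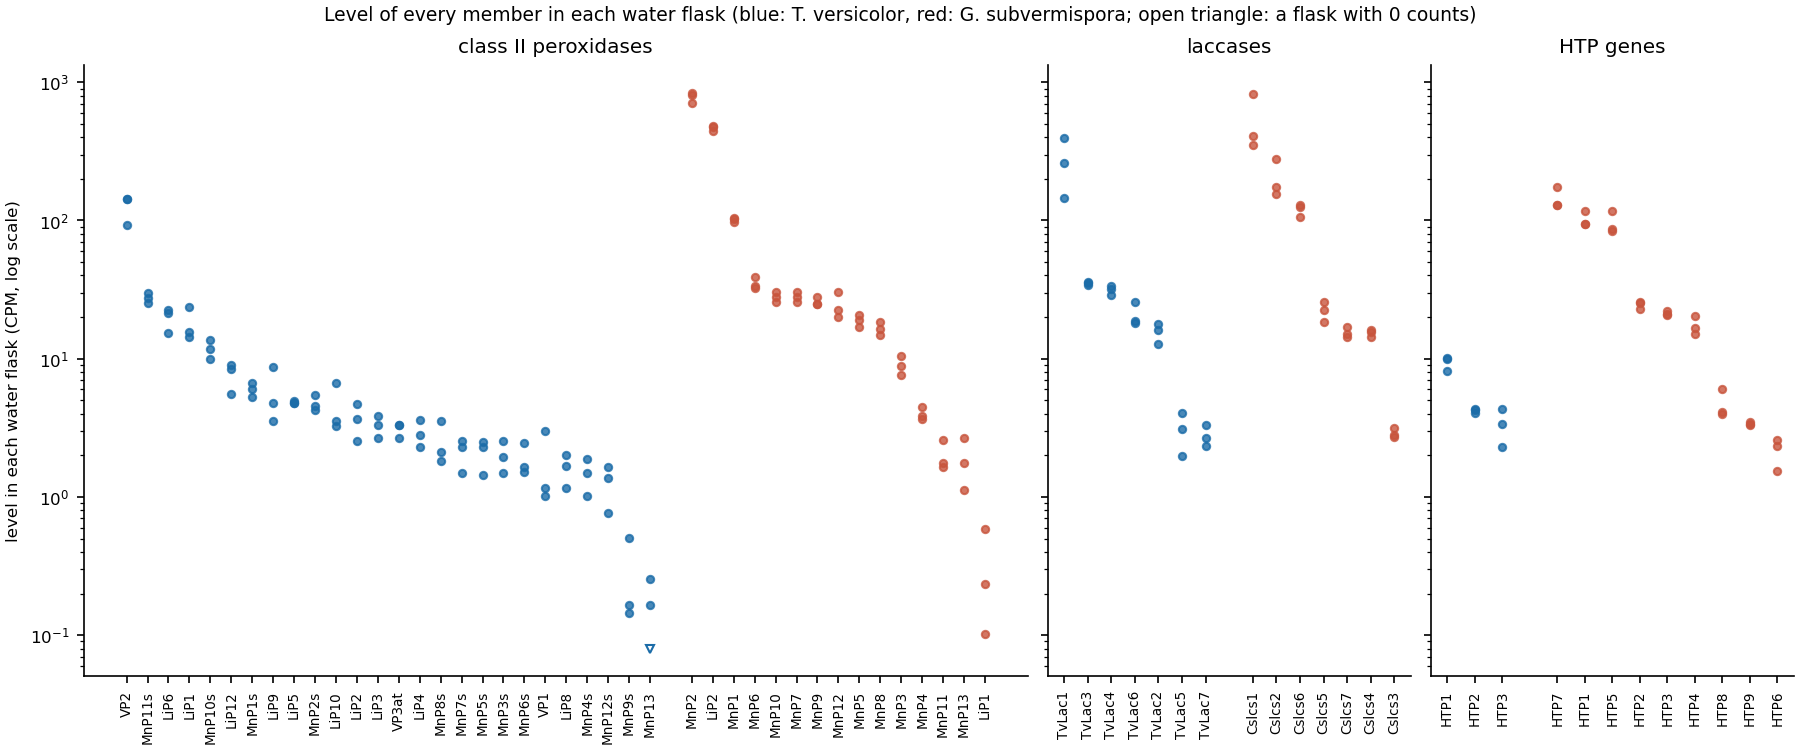
Level in CPM (log axis) of each member of the class II peroxidase, laccase and HTP groups in the 3 water flasks, T. versicolor in blue and G. subvermispora in red, ordered by mean (open triangle: 0 counts). MnP2, LiP2 and Cslcs1 are the highest in G. subvermispora at 783, 470.3 and 529 CPM on average, and VP2 and TvLac1 in T. versicolor at 126 and 268 CPM.

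HTP genes encode heme-thiolate peroxidases, also known as unspecific peroxygenases, secreted enzymes that insert oxygen from peroxide into organic compounds. They had the largest ratio of the groups compared. The 3 genes of T. versicolor summed to 18.6, 17.7 and 14.4 CPM (16.9 ± 2.19) and the 9 of G. subvermispora to 423, 387 and 436 CPM (415 ± 25.3), which is 24.6-fold (log2 4.62, SE 0.12). In T. versicolor HTP1 led at 9.95, 10.05 and 8.10 CPM, or 55.5% ± 1.68 of the counts, with HTP2 and HTP3 at 4.21 ± 0.14 and 3.33 ± 1.02 CPM. In G. subvermispora HTP7 came first at 174, 130 and 129 CPM (34.7% ± 5.87), then HTP1 at 93.6, 94.8 and 117 CPM and HTP5 at 83.3, 86.7 and 117 CPM. The effective number of members was 2.69 ± 0.057 of 3 and 5.03 ± 0.24 of 9. HTP6, HTP8 and HTP9 of G. subvermispora were at 2.14 to 4.73 CPM, a level like that of the T. versicolor genes, and the other 6 were higher than each T. versicolor HTP gene.

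The cytochrome c peroxidase and Fet3 genes, 1 of each in both fungi, stood closer together than the summed groups. Cytochrome c peroxidase removes hydrogen peroxide in mitochondria. CCP1 of T. versicolor stood at 172, 200.4 and 192 CPM and CCP of G. subvermispora at 215, 222 and 230.3 CPM. The CCP flasks were all higher, 1.18-fold on average, but relative to the median gene of the flask the sign turned, from 0.24 (SE 0.07) to -0.24 on the log2 scale. The exact permutation p was 0.1 in water (adjusted 0.15). Over 12 flasks the test takes the mean of the differences in water and with vanillate. That mean was 0.70 on the log2 scale, with 1.15 for vanillate alone, so it is not a test of the water flasks. Its exact permutation p was 0.005 (adjusted 0.0075), and 0.18 relative to the median gene. Fet3, known from yeast, is a copper oxidase of the cell surface that serves iron uptake. TvFet3A stood at 197, 355 and 345 CPM and Csfet3 at 178, 165 and 204 CPM, where flask 1 of T. versicolor fell within the Csfet3 range and the other 2 above it. The difference of mean log2 levels was -0.67 (SE 0.29), G. subvermispora minus T. versicolor (exact permutation p = 0.2, adjusted 0.24). The log2 ratio of the mean levels was -0.71. Over 12 flasks the difference was -0.57 (exact permutation p = 0.01, adjusted 0.012), with -0.46 for vanillate alone. For Fet3, too, this is not a test of the water flasks. TvFet3A had a coefficient of variation of 29.5%, above 97.4% of genes, and Csfet3 one of 10.8%. Within a flask, the ratio of Fet3 to cytochrome c peroxidase counts was 1.15, 1.77 and 1.80 in T. versicolor and 0.83, 0.74 and 0.89 in G. subvermispora.

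The neighbouring symbol families stand in 1 table only and were not compared between the fungi. The function behind the LDO, PRX and CsPh symbols is not given in the sources used here. In T. versicolor the dye-decolorizing peroxidase genes DyP1 and DyP2 were at 24.3 ± 4.97 and 4.54 ± 0.63 CPM, and LDO1 and LDO2 at 167 ± 47.7 and 41.6 ± 5.59 CPM. In G. subvermispora PRX5 was at 277, 313 and 337 CPM. The 12 CsPh genes of that fungus summed to 2918 ± 259 CPM, more than its class II genes. CsPh2 led them at 1542, 1764 and 1771 CPM.

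In the vanillate flasks the fungi differed in the same direction for every sum compared, by other amounts. The ratio of means was 1.95 for class II peroxidases, 6.00 for MnP, 1.40 for LiP, 4.10 for laccases and 28.5 for HTP genes, against 5.81, 16.9, 6.57, 2.41 and 24.6 in water. These changes of the ratio were not tested. For the number of genes holding 50% of counts, the fungi stood 240 genes apart in water and 159 apart with vanillate. The difference in the share of the 100 most abundant genes was larger with vanillate, -3.27 against -2.61 percentage points.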

How the data were processed

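The authors deposited raw read counts per gene for each library, without normalization. FastQC, STAR and HTSeq are listed in the submitters' processing notes, with no version. The strand setting, like the annotation and the genome build, was not given in the sources used here. Per the labels' protocols, libraries were made with a stranded total RNA kit. The 5 closing lines of unassigned reads (genes took 74.7% to 79.9% of reads in the water flasks) were left out of totals. Near-identical copies in the peroxidase and laccase families may have lost or shared reads, as may overlapping genes, so their levels are uncertain.

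The 2 libraries of a flask were summed: over genes with at least 10 counts, chi-square divided by its degrees of freedom ran from 1.02 to 1.09 within flasks and from 2.54 to 8.76 between them. The labels do not say how the second library was made, or whether flasks came from separate seed cultures, and the p-values therefore reflect only how these flasks spread. Counting limits cover counting error only (a count of 0 allows 3).

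Values were computed in Python 3.11.15 (numpy 2.4.6, pandas 2.3.3, scipy 1.17.1). Levels are CPM of the gene count total. Ratios are of group means, with the SE of the log2 difference from flask SDs. Tests of the cytochrome c peroxidase and Fet3 levels used mean log2 levels, whose differences depart slightly from log2 ratios of means. Exact permutation tests were two-sided, over 20 regroupings of the 6 water flasks and 400 of all 12 with the fungus permuted within treatment, with Benjamini-Hochberg adjustment over 6 values. edgeR 4.0.16 in R 4.3.3 gave the low-count filter, TMM factors and dispersions, and DESeq2 1.42.0 size factors. Steps were tested on simulated data. The fungi share no gene identifiers, so no test ran across genes. The genes named are all members of the symbol groups, the 10 most abundant genes of each fungus (of which the text gives some) and 4 neighbouring symbol families. Members and lists were chosen with earlier results of these data known. Deviations of same-numbered flasks of the 2 fungi had correlations of -0.28, 0.03 and -0.53 over 11 values. These values share genes and depend on each other, so the correlations cannot settle whether equal numbers mark a shared block. Numbers were not used as pairs in the main tests.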

Additional observations from a re-analysis of the deposited data

Results flagged for a closer look

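The distance between the fungi in the number of genes holding 50% of the gene counts was smaller with vanillate than with water. It was 240 genes in water (761 and 1001) and 159 with vanillate (723 and 883), a change of -80.3 genes. A test of that change itself drew attention to it, with each fungus centred on its own mean and the fungus permuted within treatment. Its permutation p was 0.005, the smallest possible, and 0.015 adjusted over 6 values. Because the means used for centring are estimates, this permutation test is approximate and not exact. By the same test the difference in the effective number of genes changed by -222 (approximate permutation p = 0.03, adjusted 0.06). The other concentration values went the other way. For the 100 most abundant genes the difference in share was -2.61 percentage points in water and -3.27 with vanillate (approximate permutation p = 0.28 for the change). For the 10 most abundant it was -0.20 and -0.53 (approximate permutation p = 0.495).

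The mean log2 levels of the cytochrome c peroxidase genes differed by 0.25 in water and by 1.15 with vanillate, G. subvermispora higher, a change of 0.90 (approximate permutation p = 0.005, adjusted 0.015). The water difference turned its sign relative to the median gene (-0.24). The mean of CCP1 was 188 CPM (water) and 229.9 CPM (vanillate). That of CCP was 223 and 508 CPM.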

How the results depend on the processing

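TMM and DESeq2 factors were fitted within each fungus, so those settings could hardly move a difference between the fungi. The tally that follows includes them and does not measure how far the differences depend on scaling between the fungi. Of 329 recomputed values, 313 kept their size within the flask spread or their side of the threshold. Of these, 1 changed sign: the share in the 10 most abundant genes in water, -0.20 percentage points and not past the test, was -0.58 to 0.05 when 1 flask was left out, and 0.05 without G. subvermispora flask 1. On the log2 scale, as a percent of genes detected the distance was 0.57 (0.39 otherwise) for genes holding 50% of counts and 0.38 (0.21) for the effective number. Relative to the median gene, sums differed by 2.04 for class II (2.54), 3.59 for MnP (4.08), 2.23 for LiP (2.72) and 4.13 for HTP genes (4.62). The cytochrome c peroxidase difference reversed, -0.24 against 0.24 (0.26 over 12 flasks, exact permutation p = 0.18), and Fet3 was -1.19 (-0.71). The HTP value was 4.82 with first libraries and 4.43 with second ones. MnP members passing the filter gave 4.36, and VP genes were 99.1 CPM per all reads (131). Leaving out the leading member, chosen after seeing the data, gave 2.45 for class II, 1.80 for laccases (1.27) and 5.17 for HTP. The share in the 10 most abundant genes over 12 flasks was -0.55 to -0.24 percentage points when 1 flask was left out (exact permutation p = 0.01 without G. subvermispora water flask 3, and 0.345 at most). A replicate block, pairing flasks by number, gave 0.39 for genes holding 50% of counts (exact p = 0.25, the smallest for 3 pairs) and changed no call. Values per gene length and lists by product name were not run, as no lengths or products were used here, and VP genes have no ratio. Depth, lowest in T. versicolor flask 3, limits genes under 1 CPM.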
